A study of Mus musculus with 18 samples.

Results

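RNA was sequenced from mouse double negative T cells, a T cell population that carries neither CD4 nor CD8 and was here obtained by conversion of CD4+ T cells. The comparison described here sets 3 libraries of cells given 400 µM ATPgs for 6 h (WTATPgs) against 3 libraries of cells given none (WT). These are all 6 libraries of 1 count table, out of 18 libraries in the series, and they were taken by their labels. The cells of both groups came from wild type spleen and lymph node and had both received antibodies to CD3 and CD28, so the untreated cells were activated too. ATPgs is described by the submitters as an ATP analogue that is not hydrolysed, and the series asks about the role of purinergic signalling in these cells. Age, sex and number of mice are not given in the labels. Whether replicates stand for separate cultures or mice is not said in the labels. The p-values therefore rest on how much these particular libraries vary, which may be technical variation alone.

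Extracellular ATP is a danger signal that T cells read through P2X ion channels and through P2Y receptors coupled to G proteins. The ectoenzymes CD39 (Entpd1) and CD73 (Nt5e) convert ATP stepwise to adenosine, whose A2a and A2b receptors raise cyclic AMP (cAMP). cAMP activates protein kinase A, which phosphorylates CREB, and CREB-family factors bind the cAMP response element in their target genes. In T cells this pathway is known for lowering interleukin 2 and other effector cytokines.

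Levels are in CPM, that is, counts scaled to the library total and its TMM factor, and are given in the order of replicates 1, 2 and 3. Total counts ran from 22112929 to 24331577. The T cell genes Cd3e (139.6, 134 and 139.9 CPM in the WT libraries and 105, 103 and 138 CPM in the WTATPgs libraries), Trac and Thy1 were present in every library. Cd4 was low, at 8.40, 10.9 and 8.67 CPM in the WT libraries and 3.12, 1.70 and 1.59 CPM in the WTATPgs libraries, and Cd8a was at 10.98, 12.1 and 12.1 CPM in the WT libraries and 6.84, 6.85 and 3.30 CPM in the WTATPgs libraries; both were lower in every treated library.

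The third treated library stood apart from the other two. On principal components of log2 CPM, the first axis (55.3% of the variance) parted WT from WTATPgs, and the second (27.5%) parted WTATPgs-3 from WTATPgs-1 and WTATPgs-2. Of 30 myeloid marker genes, 26 were above all 3 WT libraries in WTATPgs-1 and WTATPgs-2, against 13 in WTATPgs-3. Their summed level was 325 to 335 CPM in WT, 678 and 683 CPM in WTATPgs-1 and WTATPgs-2, and 509 CPM in WTATPgs-3. Ccr2, a chemokine receptor that T cells also express, gave most of that last sum, at 225, 223 and 341 CPM in the treated libraries. S100a9, a neutrophil and monocyte gene, was at 16.3, 13.9 and 14.1 CPM in the WT libraries and 69.1, 69.00 and 9.81 CPM in the WTATPgs libraries. Csf1r, the macrophage growth factor receptor gene, was at 0.600, 0.599 and 0.619 CPM in the WT libraries and 3.51, 4.15 and 0.610 CPM in the WTATPgs libraries.

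Most B cell markers showed the same split. Of 18, 15 were above all 3 WT libraries in WTATPgs-1 and WTATPgs-2, against 2 in WTATPgs-3. Their sum was 111 to 117 CPM in WT, 193 and 189 CPM in the first 2 treated libraries and 80.8 CPM in WTATPgs-3. Blk differed and gave much of that last sum. It was at 7.01, 8.80 and 8.58 CPM in the WT libraries and 7.88, 6.94 and 28.6 CPM in the WTATPgs libraries. Ms4a1 (CD20) had no count in WTATPgs-3 and was at 1.57, 1.24 and 1.24 CPM in WT. Genes of gamma delta T cells went the other way, and these were picked after their values were seen. Trdc, the constant region of the T cell receptor delta chain, was at 29.2, 30.3 and 30.7 CPM in the WT libraries and 26.5, 26.4 and 131 CPM in the WTATPgs libraries. Cd163l1 was at 3.46, 4.05 and 3.19 CPM in the WT libraries and 8.27, 7.59 and 104 CPM in the WTATPgs libraries, and Sox13, a transcription factor of gamma delta T cells, was at 3.97, 3.36 and 4.29 CPM in the WT libraries and 3.60, 3.19 and 40.1 CPM in the WTATPgs libraries. Against the other 2 treated libraries, WTATPgs-3 was thus low in myeloid and B cell RNA and high in gamma delta T cell RNA. WTATPgs-1 and WTATPgs-2 were close to each other throughout. Against WT, the median log2 fold change of the tested myeloid markers was 0.06 in WTATPgs-3 alone and 1.74 without it. For the B cell markers these medians were −1.18 and 1.09. The part of these differences in the gene changes below was not tested. In bulk RNA, fewer cells of a type and less RNA per cell cannot be told apart. Counts of calls, and values that turn on WTATPgs-3, are therefore given with it and without it.

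**Figure D1:**
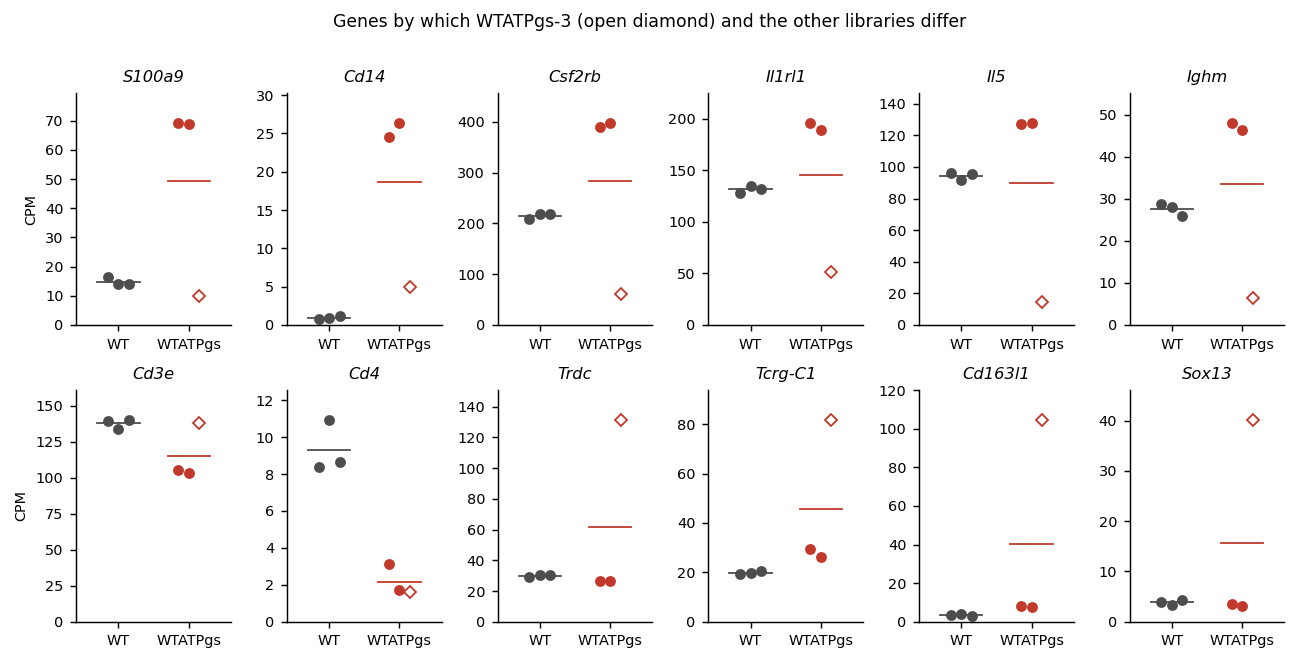
CPM (vertical axes, from 0) of 12 genes in the WT (grey) and WTATPgs (red) libraries; points are libraries, lines are group means and the open diamond is WTATPgs-3. S100a9, Csf2rb, Il1rl1, Il5 and Ighm were below WT in WTATPgs-3 and above WT in the other 2 treated libraries, whereas Trdc, Tcrg-C1, Cd163l1 and Sox13 were high in WTATPgs-3.

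ATPgs moved a large share of the transcriptome by modest amounts. Of 15124 genes tested, 2678 (17.7%) were higher and 2934 (19.4%) lower at an adjusted p under 0.05, 37.1% in all (edgeR quasi-likelihood test, Benjamini-Hochberg adjustment). The median absolute log2 fold change was 0.24. At least 2-fold changes were fewer, with 592 genes higher and 241 lower, and 120 and 32 genes changed at least 4-fold. Without WTATPgs-3, 4186 of 15568 genes (26.9%) were higher and 4195 (26.9%) lower, 53.8% in all. Of the 5612 calls made with 6 libraries, 5565 were made in the same direction without WTATPgs-3, 47 were lost and 0 turned. The common biological coefficient of variation fell from 10.6% to 2.54% on leaving that library out. A further 2631 genes were called only without it. In each of the 6 fits with 1 library left out, 3342 of the 5612 genes passed, 1565 higher and 1777 lower. A gene called with 6 libraries and named below that passed in fewer than 6 of those fits has the number stated beside it. Of 190 tested genes named here and called with 6 libraries, 188 were called in the same direction without WTATPgs-3, the exceptions being Prkaca and Tnfsf13b. Their log2 fold changes moved by a median of 0.07, and 2 moved by more than 1.5-fold: Enpp2 to 2.001 and Ermn to 1.80. Genes named for the largest changes or the smallest p had to keep their call without WTATPgs-3 to be named. For them this agreement was fixed in advance. The number of genes higher fell to 1784 without WT-1 and to 1778 without WT-3. Scaled to library size only, the split was 3226 higher and 2331 lower (58.1% of calls higher, against 47.7%).

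The smallest p of all tested genes was that of Il2, which encodes interleukin 2, a growth factor of T cells (ENSMUSG00000027720, chromosome 3, 37120523 to 37125959 in GRCm38). Il2 was at 375, 370.4 and 359 CPM in the WT libraries and 56.1, 55.3 and 55.4 CPM in the WTATPgs libraries. The treated libraries lay within 1 CPM of each other and far below WT, and Il2 fell by 2.73 ± 0.04 on the log2 scale (SE, 3 libraries a group, here and below; adjusted p = 4.82e-09, edgeR). WTATPgs-3 lay between the other 2. The 15 rises and the 15 falls with the smallest p of their direction were picked after their values were seen, under the conditions of the naming rule below. All kept their call in each fit with a library left out, which the rule required only for the fit without WTATPgs-3. Among those that fell with Il2 were Tnfsf8 (CD30 ligand), Sema7a (semaphorin 7A), Tnfsf14 (LIGHT) and Egr2, a transcription factor induced by the T cell receptor. Egr2 was at 459, 452 and 441 CPM in the WT libraries and 207, 214 and 195 CPM in the WTATPgs libraries, a fall of 1.14 ± 0.04. Stat5a, the transcription factor activated by interleukin 2, was at 405, 403 and 414 CPM in the WT libraries and 214, 215 and 215 CPM in the WTATPgs libraries and fell by 0.93 ± 0.03. Bcl2l1 (the survival protein BCL-XL) fell by 0.90 ± 0.04, Ccnd2 (cyclin D2) fell by 0.72 ± 0.03, and Dusp2 fell by 0.91 ± 0.04. The B and T cell factor gene Pou2f2 (OCT2) fell by 1.58 ± 0.05 and the phosphatase gene Ptprs fell by 1.41 ± 0.04.

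The genes that rose with the smallest p included regulators of metabolism, costimulation and survival. Dgat1, which makes triglyceride, was at 98.3, 108 and 96.8 CPM in the WT libraries and 474, 487 and 478 CPM in the WTATPgs libraries (2.25 ± 0.05). Txnip, an inhibitor of glucose uptake, rose by 1.87 ± 0.04, and Tsc22d3 (GILZ), known as a glucocorticoid-induced inhibitor of T cell activation, by 2.19 ± 0.07. Crem, a cAMP-induced member of the CREB family, was at 120.5, 116 and 118 CPM in the WT libraries and 347, 335 and 342 CPM in the WTATPgs libraries. The groups were far apart, and Crem rose by 1.53 ± 0.04 (adjusted p = 9.07e-08, edgeR). Icos, a costimulatory receptor gene of the CD28 family, was at 132, 131 and 133 CPM in the WT libraries and 365, 368 and 386 CPM in the WTATPgs libraries and rose by 1.50 ± 0.04. Il7r, the receptor of the survival cytokine interleukin 7, was at 95.2, 98.7 and 96.2 CPM in the WT libraries and 218, 225 and 213 CPM in the WTATPgs libraries and rose by 1.18 ± 0.04. Ifngr1 (interferon gamma receptor 1) was at 97.7, 101 and 102 CPM in the WT libraries and 388, 381 and 442 CPM in the WTATPgs libraries and rose by 2.01 ± 0.06. Fth1, the heavy chain of the iron store ferritin, rose by 1.32 ± 0.04, Vps37b by 2.36 ± 0.06, Ppp1r3b, a glycogen phosphatase subunit, by 1.50 ± 0.03, and the lipid droplet gene Hilpda by 1.07 ± 0.04. In each of these genes all 3 treated libraries lay above all 3 WT libraries, which was a condition of their naming. Of all tested genes, 24.5% lay above in this way and 26.8% below.

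**Figure D2:**
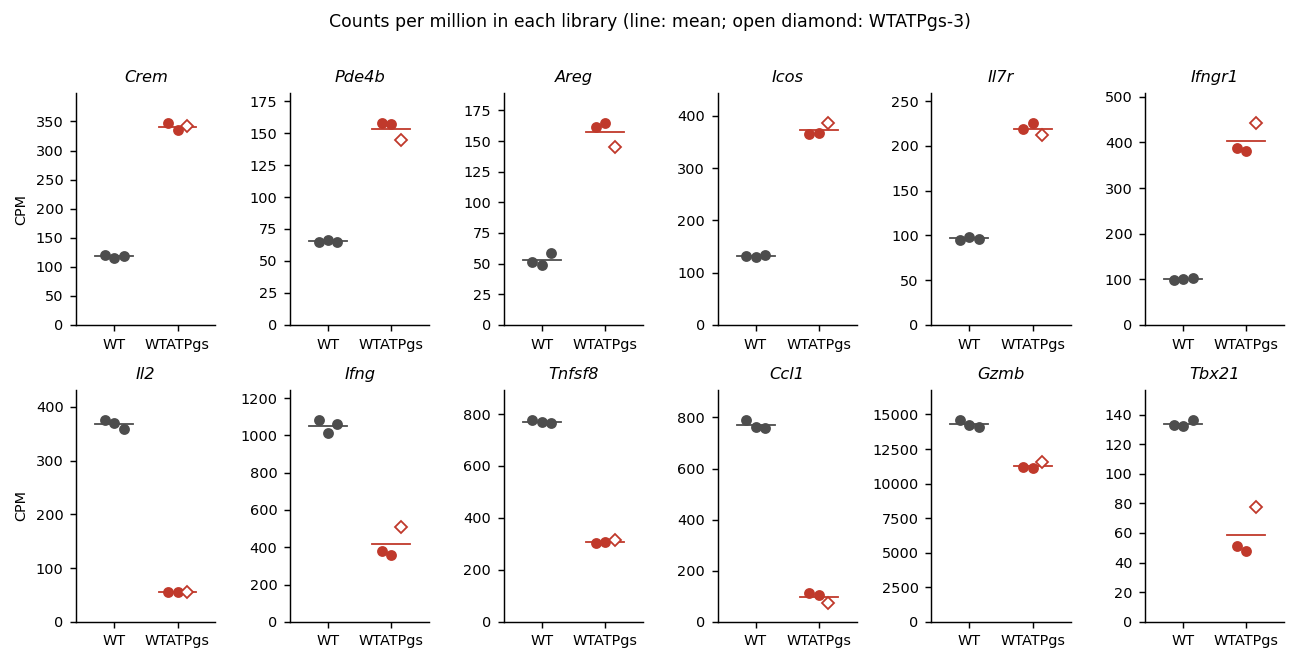
CPM (vertical axes, from 0) of 12 genes in the WT (grey) and WTATPgs (red) libraries; points are libraries, lines are group means and the open diamond is WTATPgs-3. The groups do not overlap in any of the 12, and for Il2 the treated libraries lie at 55.3 to 56.1 CPM against 359 to 375 CPM in WT.

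Genes known from myeloid cells were among the largest fold changes. The naming rule asks for a call with and without WTATPgs-3, no overlap between groups and at least 5 CPM in a group. By this rule the largest rise was Cd14, the monocyte receptor of lipopolysaccharide. It was at 0.831, 0.875 and 1.19 CPM in the WT libraries and 24.5, 26.3 and 5.004 CPM in the WTATPgs libraries, a rise of 4.25 ± 0.82 (adjusted p = 0.0152, edgeR). WTATPgs-3 was far below the other 2 treated libraries yet above WT. Thbs1 (thrombospondin 1) was at 6.09, 6.22 and 8.05 CPM in the WT libraries and 159, 153 and 34.6 CPM in the WTATPgs libraries, Clec4d, a myeloid lectin, at 0.600, 0.414 and 0.531 CPM in the WT libraries and 9.01, 9.60 and 1.46 CPM in the WTATPgs libraries, and Plaur, the urokinase receptor, at 5.08, 3.96 and 4.73 CPM in the WT libraries and 36.1, 36.2 and 14.5 CPM in the WTATPgs libraries. All of these were lowest among treated libraries in WTATPgs-3, where the myeloid markers were also lower than in the other 2. In contrast, Ptprf, a receptor phosphatase gene, was at 3.09, 3.32 and 3.05 CPM in the WT libraries and 21.4, 23.7 and 20.4 CPM in the WTATPgs libraries and rose by 2.79 ± 0.10 at nearly equal levels in the 3 libraries. Ramp3, which pairs with calcitonin family receptors, was at 18.96, 17.6 and 16.4 CPM in the WT libraries and 150.0, 145 and 112 CPM in the WTATPgs libraries and rose by 2.94 ± 0.13. Calls of Cd14, Thbs1, Clec4d, Il1f9, Enpp2 and Ermn were lost in some fits with a library left out (passed in 3, 1, 2, 2, 3 and 2 of 6 fits). Enpp2 (autotaxin) and Ermn were highest in WTATPgs-3, at 4.59, 6.90 and 19.4 and 7.49, 4.58 and 23.5 CPM in the treated libraries.

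The largest falls were more even. Adad1 (log2 fold change −3.35 ± 0.13) led them. Its span (chromosome 3, 37063527 to 37121930) overlaps the end of Il2, though the exons of Adad1 and Il2 do not overlap in GENCODE M21. The tool and the strandedness of the counting are not given, so the counts of Adad1 are uncertain. Ccl1, a chemokine of activated T cells, was at 789, 763 and 760.1 CPM in the WT libraries and 113, 106 and 71.6 CPM in the WTATPgs libraries and fell by 2.99 ± 0.19 (adjusted p = 2.69e-04, edgeR). Igf2, a fetal growth factor gene, was at 51.6, 50.8 and 52.1 CPM in the WT libraries and 10.4, 8.90 and 7.12 CPM in the WTATPgs libraries and fell by 2.55 ± 0.12. Csf2 (GM-CSF) was at 319, 311 and 315 CPM in the WT libraries and 81.4, 82.3 and 48.01 CPM in the WTATPgs libraries and fell by 2.16 ± 0.23, and Hivep3, a large zinc finger gene, fell by 2.13 ± 0.08 from 476, 484 and 498 CPM to 118, 119.7 and 95.9 CPM. All treated libraries were below all WT libraries, as the naming rule requires, and WTATPgs-3 was the lowest in each of these 4. Cd4 was also among the 15 largest falls (−2.13 ± 0.26), as were Il9 (−2.10 ± 0.40), Ccl20 (−1.97 ± 0.55, passed in 1 of 6 fits) and Zfp683 (−1.97 ± 0.27), which encodes HOBIT, a factor of tissue-resident T cells.

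The other genes of the same rule were low in at least 1 group. Among the rises they were Muc3 (4.06 ± 0.66), Sgip1 (3.35 ± 0.21), Peg10 (3.16 ± 0.31), Vgf (2.96 ± 0.25), Cabyr (2.76 ± 0.30) and Foxf1 (2.54 ± 0.32). Vgf, which encodes a neuropeptide precursor, was at 1.94, 2.12 and 1.55 CPM in the WT libraries and 15.9, 17.9 and 9.89 CPM in the WTATPgs libraries. Among the falls they were Shank1 (−2.93 ± 0.22), Dmkn (−2.89 ± 0.33), Iqcf3 (−2.26 ± 0.20), Mpzl2 (−2.25 ± 0.26) and Shisa3 (−1.98 ± 0.13), the last of which overlaps Atp8a1. Ranked by the difference in CPM in place of the fold, the genes included Fosl2, an AP-1 subunit gene, at 443, 441 and 447 CPM in the WT libraries and 1022, 1039.9 and 845 CPM in the WTATPgs libraries (a rise of 1.13 ± 0.08), and Nabp1, at 519, 521 and 506 CPM in the WT libraries and 1092, 1093 and 971 CPM in the WTATPgs libraries (a rise of 1.03 ± 0.05). Actg1 (cytoplasmic actin) rose by 0.32 ± 0.03 and mt-Cytb by 0.32 ± 0.04, and mt-Co1 by 0.11 ± 0.03 (passed in 1 of 6 fits). Spp1 (osteopontin) was at 2065, 2098 and 2067 CPM in the WT libraries and 1309.5, 1311 and 1595 CPM in the WTATPgs libraries and fell by 0.56 ± 0.08. Ncl (nucleolin) fell by 0.66 ± 0.07 and the chaperone gene Hspa8 fell by 0.54 ± 0.10; both spans hold small nucleolar RNA genes, whose reads could count for either. Eef1a1, the translation elongation factor gene, fell by 0.11 ± 0.03 (passed in 1 of 6 fits).

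**Figure D3:**
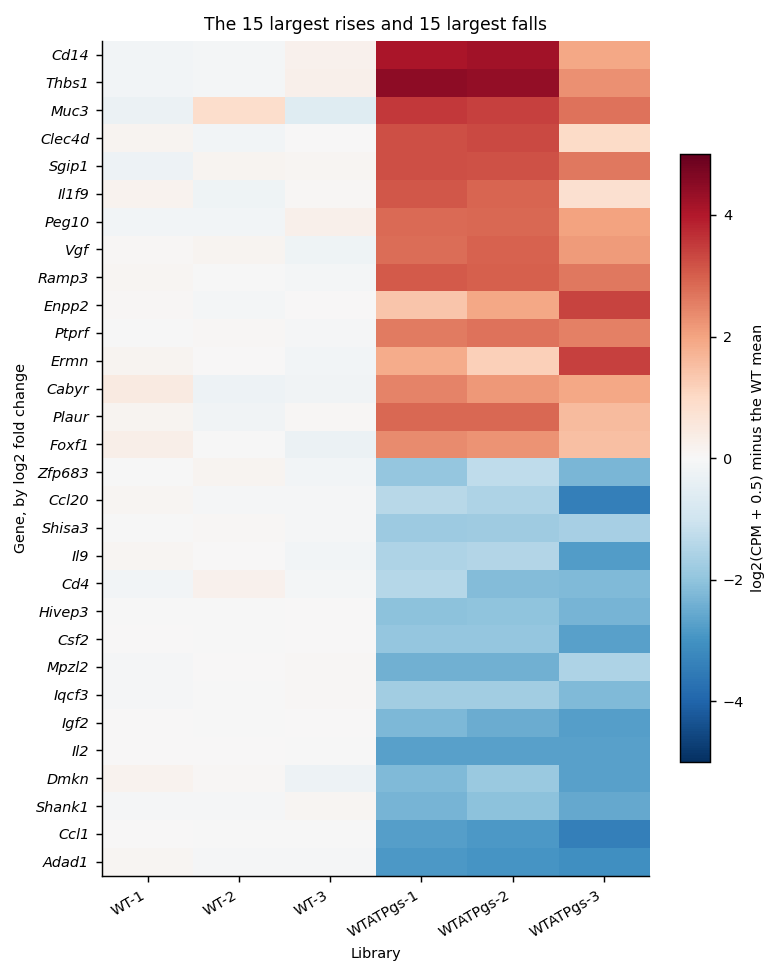
Heat map of the 15 largest rises and 15 largest falls by the naming rule (rows) in the 6 libraries (columns), as log2(CPM + 0.5) minus the mean of the WT libraries, with red above and blue below WT. WTATPgs-3 is paler than the other treated libraries for Cd14, Thbs1, Clec4d, Il1f9 and Plaur and darker for Enpp2, Ermn, Ccl20 and Ccl1, while Ptprf, Adad1 and Il2 are even across the 3.

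Of 27 tested purinergic genes, 5 (18.5%) were higher and 8 (29.6%) lower with 6 libraries, beside 17.7% and 19.4% of all tested genes. Without WTATPgs-3 the counts were 13 (48.1%) and 8 (29.6%), beside 26.9% of all tested genes in each direction. The share higher with 6 libraries was thus near that of all genes. The list's median log2 fold change was 0.04, and over all tested genes it was −0.0006. Entpd1 (CD39), the ectoenzyme that degrades ATP and ADP, was at 60.96, 61.7 and 59.02 CPM in the WT libraries and 79.3, 76.8 and 67.9 CPM in the WTATPgs libraries and rose by 0.30 ± 0.06 (adjusted p = 0.00533, edgeR). Nt5e (CD73), which makes adenosine from AMP, was at 62.8, 62.6 and 59.5 CPM in the WT libraries and 116, 116 and 82.6 CPM in the WTATPgs libraries and rose by 0.77 ± 0.14 (adjusted p = 0.00696, edgeR). Both were above WT in every treated library. The genes that remove adenosine moved down. Ada (adenosine deaminase) fell by 0.51 ± 0.11 and Adk (adenosine kinase) fell by 0.43 ± 0.11 (passed in 4 of 6 fits). The nucleoside transporter genes Slc29a1 (ENT1) and Slc29a2 (ENT2) fell as well (log2 fold changes −0.48 ± 0.05 and −1.18 ± 0.10). Slc29a2 was at 13.8, 13.4 and 13.2 CPM in the WT libraries and 6.11, 5.50 and 6.18 CPM in the WTATPgs libraries.

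Among the receptors for ATP and other nucleotides, P2ry10, a lysophosphatidylserine receptor gene named for its sequence family, was at 52.00, 48.6 and 48.4 CPM in the WT libraries and 140.3, 136 and 171 CPM in the WTATPgs libraries and rose by 1.59 ± 0.09. P2ry12, an ADP receptor, rose by 0.95 ± 0.10 from 7.29, 6.91 and 7.12 CPM to 13.99, 14.8 and 12.5 CPM. P2rx7, the ATP-gated channel best known in T cells, was at 41.5, 43.9 and 40.3 CPM in the WT libraries and 51.03, 54.4 and 24.1 CPM in the WTATPgs libraries. It was above WT in 2 treated libraries and below it in WTATPgs-3, and its log2 fold change was 0.04 ± 0.32 (adjusted p = 0.937, edgeR) with 6 libraries and 0.33 (adjusted p = 1.75e-07) without WTATPgs-3. P2rx1, P2rx3, P2rx4 and P2ry1 likewise passed only without WTATPgs-3. P2ry2, an ATP and UTP receptor, fell by 1.21 ± 0.25 from a low level (3.32, 3.59 and 3.45 CPM in WT), and P2rx5 fell by 0.71 ± 0.23 (passed in 2 of 6 fits). Art2b, the surface ADP-ribosyltransferase that can gate P2X7 in mouse T cells, was at 12.5, 12.3 and 12.4 CPM in the WT libraries and 5.28, 5.89 and 3.74 CPM in the WTATPgs libraries and fell by 1.32 ± 0.16.

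Of the adenosine receptors, Adora2a (A2a) was at 146, 143 and 146 CPM in the WT libraries and 126, 125 and 111 CPM in the WTATPgs libraries and fell by 0.27 ± 0.05 (adjusted p = 0.00456, edgeR), with all treated libraries below WT. Adora2b (A2b) was at 65.3, 66.2 and 66.01 CPM in the WT libraries and 71.04, 74.5 and 63.6 CPM in the WTATPgs libraries, with log2 fold changes of 0.08 ± 0.06 (adjusted p = 0.317, edgeR) with 6 libraries and 0.14 (adjusted p = 0.00267) without WTATPgs-3. Adora3, a receptor coupled to inhibition of cAMP, was at 5.08, 4.42 and 5.04 CPM in the WT libraries and 5.28, 5.06 and 2.36 CPM in the WTATPgs libraries and passed in neither fit. Panx1, the pannexin channel that releases ATP, rose by 0.29 ± 0.07 (passed in 3 of 6 fits).

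**Figure D4:**
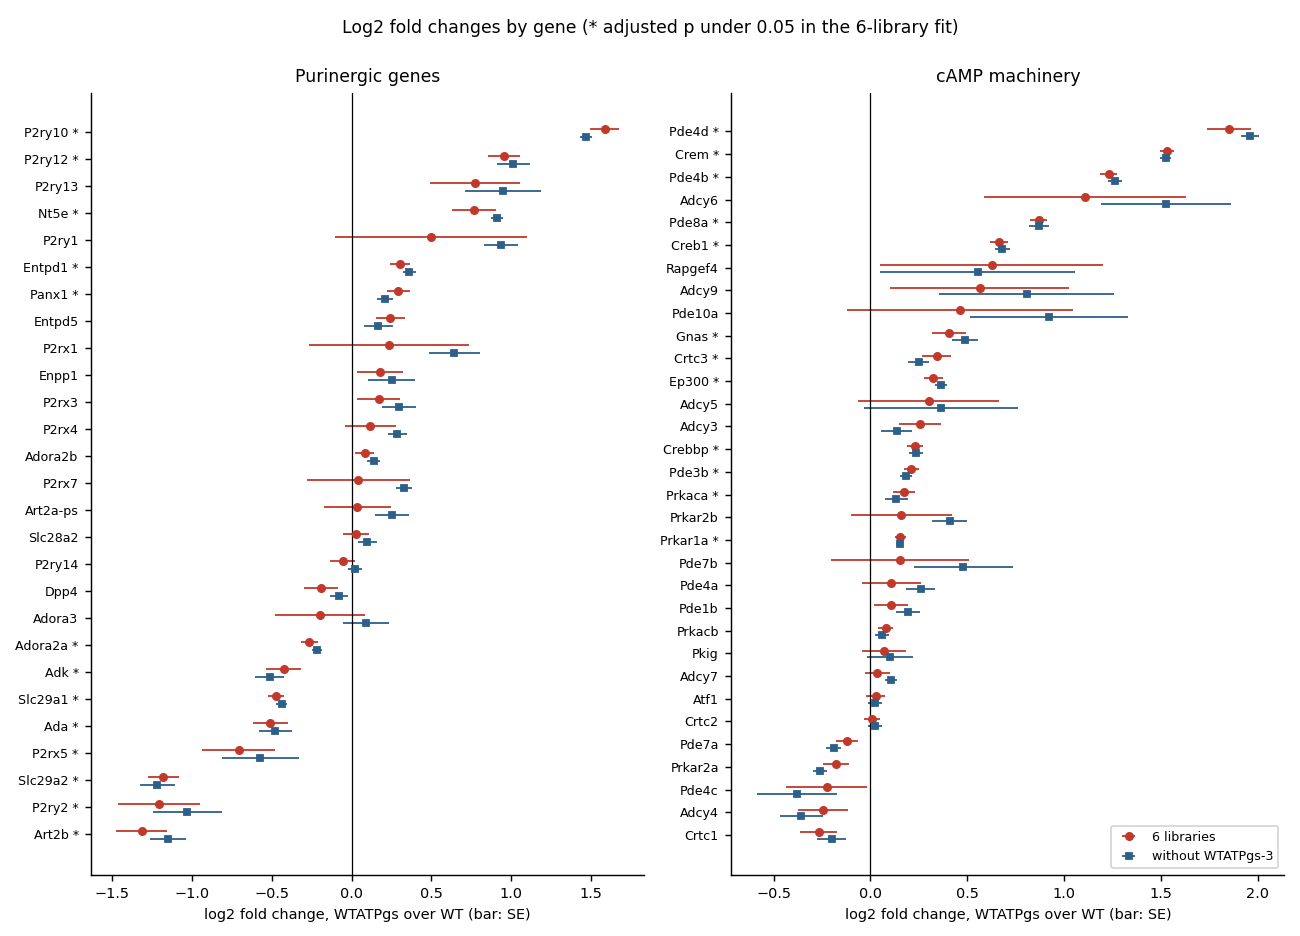
Log2 fold changes of WTATPgs over WT (horizontal axes, bars are SE) of the 27 tested purinergic genes and the 32 tested genes of the cAMP machinery, with 6 libraries (red) and without WTATPgs-3 (blue); a star marks adjusted p under 0.05 with 6 libraries. Pde4d, Crem and Pde4b are the largest starred rises on the right, and no gene on the right falls with a star.

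Of the genes of the cAMP machinery, those that passed with 6 libraries were all higher. Of 32 tested genes, 12 were higher and 0 lower (16 and 4 without WTATPgs-3), beside 17.7% and 19.4% of all tested genes. The phosphodiesterases degrade cAMP, which induces some of them, and 4 of them passed. Pde4d was at 26.1, 27.4 and 23.98 CPM in the WT libraries and 102, 99.5 and 77.8 CPM in the WTATPgs libraries and rose by 1.85 ± 0.11 (adjusted p = 3.59e-05, edgeR). Pde4b was at 64.97, 66.2 and 64.7 CPM in the WT libraries and 158, 157 and 145 CPM in the WTATPgs libraries and rose by 1.23 ± 0.05. Pde8a, at 31.98, 31.8 and 31.2 CPM in the WT libraries and 57.2, 58.96 and 57.3 CPM in the WTATPgs libraries, rose by 0.87 ± 0.05, and Pde3b rose by 0.21 ± 0.04. In all 4 the groups did not overlap. Pde4a, Pde1b and Pde7a did not pass with 6 libraries, with log2 fold changes of 0.11 ± 0.15, 0.11 ± 0.09 and −0.12 ± 0.06.

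Upstream of them, Gnas, which encodes the stimulatory G protein subunit, rose by 0.40 ± 0.09 from 21.6, 22.7 and 22.1 CPM to 30.6, 31.7 and 25.6 CPM. Adcy7, an adenylyl cyclase gene, was at 153, 151 and 154 CPM in the WT libraries and 161, 168 and 139.8 CPM in the WTATPgs libraries and did not pass (0.04 ± 0.06, adjusted p = 0.703, edgeR; adjusted p = 0.00329 without WTATPgs-3). The kinase A genes moved little: Prkar1a rose by 0.15 ± 0.03, and Prkaca by 0.18 ± 0.06, a call that passed in 1 of 6 fits and not without WTATPgs-3 (adjusted p = 0.0586). Downstream, Creb1 was at 64.05, 60.3 and 63.04 CPM in the WT libraries and 102, 99.1 and 95.7 CPM in the WTATPgs libraries and rose by 0.66 ± 0.04 (adjusted p = 1.69e-05, edgeR), while its relative Atf1 did not pass (0.03 ± 0.05). The coactivators Crebbp, Ep300 and Crtc3 rose by 0.23 ± 0.04, 0.33 ± 0.05 and 0.34 ± 0.08.

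Of 31 tested targets of cAMP and CREB, 23 (74.2%) were higher and 0 lower with 6 libraries, beside 17.7% and 19.4% of all tested genes. Like the other lists, this one was chosen with earlier results of these data known, so its share is not an independent test. Without WTATPgs-3 the counts were 28 (90.3%) and 1 (3.2%), beside 26.9% in each direction. The 1 lower was Id2 (−0.07). The median log2 fold change was 0.59, and 0.91 without WTATPgs-3. Some members, such as Fos and Nr4a1, also answer to T cell receptor signals, and Crem, Pde4b, Pde4d and Pde3b are in both this list and the last. Rgs2, which shortens G protein signals, was at 51.8, 54.5 and 52.4 CPM in the WT libraries and 202, 209 and 173 CPM in the WTATPgs libraries and rose by 1.88 ± 0.07 (adjusted p = 1.42e-06, edgeR). Areg, which encodes the tissue repair factor amphiregulin, was at 51.6, 48.8 and 58.9 CPM in the WT libraries and 162, 164 and 145 CPM in the WTATPgs libraries and rose by 1.56 ± 0.08. Ctla4, the inhibitory receptor gene, was at 174, 167 and 168 CPM in the WT libraries and 380.5, 378 and 345 CPM in the WTATPgs libraries and rose by 1.11 ± 0.05. Ikzf2 (HELIOS) rose by 1.05 ± 0.04. In these 4 the lowest treated library was above the highest WT library.

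The immediate early members were less even. Fos was at 21.04, 23.3 and 20.6 CPM in the WT libraries and 111, 118 and 61.8 CPM in the WTATPgs libraries and rose by 2.17 ± 0.28 (adjusted p = 0.00398, edgeR), with WTATPgs-3 between WT and the other 2. Nr4a1 (NUR77) was at 849, 857 and 845 CPM in the WT libraries and 1362, 1409.9 and 981 CPM in the WTATPgs libraries and rose by 0.56 ± 0.14, but passed in 1 of 6 fits. Nr4a3 (0.28 ± 0.08, 1 of 6 fits) and Fosb (1.21 ± 0.26, 1 of 6 fits) did the same, and for all 3 the fit that passed was the one without WTATPgs-3. Nr4a2 (0.85 ± 0.14), the kinase gene Sik1 (0.79 ± 0.12), Per1 (0.54 ± 0.09) and Dusp1 (1.88 ± 0.23), a phosphatase that turns off MAP kinases, passed in all 6. Egr1 was at 400.1, 436 and 419.7 CPM in the WT libraries and 685, 682 and 443 CPM in the WTATPgs libraries and did not pass with 6 libraries (0.53 ± 0.19, adjusted p = 0.0838, edgeR).

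The full cAMP response element, TGACGTCA on either strand, was sought in RefSeq promoters of GRCm38.p6 (250 bases before to 50 after a start), which were at hand for 10436 of the tested genes. It stood in the promoters of 3.56% of all of these, of 2.64% of the 379 genes that rose at least 2-fold with and without WTATPgs-3, and of 3.40% of the 147 that fell as much. The shorter core TGACG, which lies within the full element, was in 34.8%, 26.6% and 26.5%. The AP-1 letters TGANTCA stood in 6.45% of all, 12.4% of those that rose and 6.80% of those that fell. Of the 22 cAMP targets with a promoter, 3 held the full element and 16 the core; the list was drawn up from known targets of CREB. The stretches below, each 100 bases upstream of a start, 5′ to 3′, show the element in capitals in 3 genes, which are Areg, Dusp1 and Dusp8; Dusp8 has 2 copies and was at 2.81, 3.09 and 2.65 CPM in the WT libraries and 13.3, 11.3 and 7.81 CPM in the WTATPgs libraries (1.92 ± 0.20).
Areg, chr5:91139499-91139598, plus strand: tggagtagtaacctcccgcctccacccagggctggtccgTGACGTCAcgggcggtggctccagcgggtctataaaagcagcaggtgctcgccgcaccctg
Dusp1, chr17:26508546-26508645, minus strand: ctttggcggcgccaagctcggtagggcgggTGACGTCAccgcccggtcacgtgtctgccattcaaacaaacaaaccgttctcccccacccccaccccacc
Dusp8, chr7:142095322-142095421, minus strand: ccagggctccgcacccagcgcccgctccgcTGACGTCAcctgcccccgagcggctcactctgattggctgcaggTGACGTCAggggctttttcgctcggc
In Areg the element ends 53 bases before the annotated start, in Dusp1 135 bases before it and the first of Dusp8 99 bases before it.

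Of 14 tested ligands of the TNF superfamily, 9 were lower and 1 higher, with a median log2 fold change of −0.77, beside 19.4% and 17.7% of all tested genes. Without WTATPgs-3 the counts were 10 (71.4%) and 1 (7.1%), beside 26.9% in each direction, but the 1 higher was another gene. Tnfsf13b (BAFF; 0.94 ± 0.31, passed in 1 of 6 fits) was the 1 higher with 6 libraries and did not pass without WTATPgs-3 (adjusted p = 0.0583, edgeR), where it was Cd40lg (CD40 ligand; 0.19). Tnfsf8 was at 776, 769 and 764 CPM in the WT libraries and 303, 307 and 316 CPM in the WTATPgs libraries and fell by 1.32 ± 0.03 (adjusted p = 9.07e-08, edgeR). Tnfsf14 was at 335, 336 and 327 CPM in the WT libraries and 175, 176 and 173 CPM in the WTATPgs libraries and fell by 0.93 ± 0.03. Tnf was at 670.1, 683 and 677 CPM in the WT libraries and 419.7, 406 and 385 CPM in the WTATPgs libraries and fell by 0.75 ± 0.04. Lta (lymphotoxin alpha) fell by 1.50 ± 0.17 and Tnfsf10 (TRAIL) fell by 1.12 ± 0.07, while Fasl fell by only 0.24 ± 0.06 (passed in 4 of 6 fits). Ltb was at 132, 125 and 129 CPM in the WT libraries and 48.3, 48.3 and 125 CPM in the WTATPgs libraries and did not pass with 6 libraries (adjusted p = 0.245, edgeR). Its level in WTATPgs-3 was that of WT, and without that library it fell by 1.42.

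Of 31 tested cytokine genes, 9 (29.0%) were lower and 5 (16.1%) higher with 6 libraries, beside 19.4% and 17.7% of all tested genes. Without WTATPgs-3 the counts were 15 (48.4%) and 12 (38.7%), beside 26.9% in each direction. Ifng, the interferon of T cells, was at 1082, 1015 and 1063 CPM in the WT libraries and 378, 359 and 509 CPM in the WTATPgs libraries and fell by 1.34 ± 0.14 (adjusted p = 0.00132, edgeR). Lif was at 672, 667 and 668 CPM in the WT libraries and 355, 356 and 256 CPM in the WTATPgs libraries and fell by 1.05 ± 0.13, and the anti-inflammatory cytokine gene Il10 fell by 1.05 ± 0.15 from 8.08, 8.70 and 8.23 CPM to 3.94, 4.84 and 3.34 CPM. Tgfb3 was at 2.03, 2.44 and 2.12 CPM in the WT libraries and 8.62, 9.16 and 12.98 CPM in the WTATPgs libraries and rose by 2.22 ± 0.19, and Il21, the cytokine of B cell help, rose by 0.49 ± 0.05. Il17a, which encodes interleukin 17A, was at 3452, 3419.5 and 3402 CPM in the WT libraries and 3456, 3448 and 2186 CPM in the WTATPgs libraries. It was level in WTATPgs-1 and WTATPgs-2 and lower in WTATPgs-3, and passed in neither fit (adjusted p = 0.536 and 0.75, edgeR). The type 2 cytokine genes also set WTATPgs-3 apart, with Il4, Il5 and Il13 far below WT there. In that library alone the median log2 fold change was 0.06 for tested myeloid markers and −1.18 for B cell markers. Il4 and Il5 were above WT in WTATPgs-1 and WTATPgs-2, and Il13 was below it. Il4 was at 126, 124 and 126 CPM in the WT libraries and 182, 180.3 and 23.7 CPM in the WTATPgs libraries. Il5 was at 96.1, 91.9 and 95.4 CPM in the WT libraries and 127, 128 and 14.8 CPM in the WTATPgs libraries. Il13 was at 567, 581 and 579 CPM in the WT libraries and 539, 529 and 127 CPM in the WTATPgs libraries. None of these 3 passed with 6 libraries, and all 3 passed without WTATPgs-3, at 0.53, 0.43 and −0.11.

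Il1b, a cytokine of myeloid cells, was at 13.01, 13.3 and 14.6 CPM in the WT libraries and 76.8, 77.1 and 7.69 CPM in the WTATPgs libraries, against summed myeloid markers of 678 and 683 CPM in the 2 high libraries. Among the 10 genes of largest excess in WTATPgs-1 and WTATPgs-2 over WTATPgs-3 it stood with Chil3 (Ym1, of macrophages; 127, 133 and 9.03 CPM), Ltf (lactoferrin, of neutrophils; 19.8, 17.98 and 1.22 CPM), Hgf, Ccl24, Prss34 (a basophil and mast cell protease; 133, 136 and 15.3 CPM), Jchain, Il5, Akr1c18 and Arg1. Chil3, Ltf, Il1b and Prss34 were below WT in WTATPgs-3 and above WT in the other 2.

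Of 19 tested chemokine genes, 6 (31.6%) were lower and 1 (5.3%) higher with 6 libraries, beside 19.4% and 17.7% of all tested genes. Without WTATPgs-3 the counts were 7 (36.8%) and 8 (42.1%), beside 26.9% in each direction. The summed level of the chemokine list fell from 7863 to 7961 CPM in WT to 3280.4 to 3361 CPM in all 3 treated libraries. Ccl3 (MIP-1 alpha) was at 3678, 3656 and 3641 CPM in the WT libraries and 1566, 1537 and 1795 CPM in the WTATPgs libraries and fell by 1.16 ± 0.06 (adjusted p = 5.50e-06, edgeR). Ccl4 (MIP-1 beta) was at 2165, 2114 and 2104 CPM in the WT libraries and 733, 714 and 881 CPM in the WTATPgs libraries and fell by 1.46 ± 0.08. Xcl1 was at 833, 842 and 887 CPM in the WT libraries and 193, 175 and 307 CPM in the WTATPgs libraries and fell by 1.92 ± 0.24, next to Ccl1 above. In contrast, the chemokine genes that rose only without WTATPgs-3, such as Ccl6 (69.7, 66.5 and 63.8 CPM in the WT libraries and 173, 175 and 22.9 CPM in the WTATPgs libraries) and Ccl9 (52.4, 50.7 and 48.00 CPM in the WT libraries and 84.9, 86.9 and 23.2 CPM in the WTATPgs libraries), were below WT in that library. Like most myeloid markers given above, Ccl6 and Ccl9 were above WT in WTATPgs-1 and WTATPgs-2. In WTATPgs-3 alone, however, the tested myeloid markers had a median log2 fold change of 0.06. The cause was not tested.

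Killing genes split into those that fell and a granzyme cluster that rose. Of 26 tested cytotoxic genes, 12 were lower and 7 higher (13 and 11 without WTATPgs-3). Gzmb (granzyme B), the most counted gene of the list, was at 14586, 14237 and 14083 CPM in the WT libraries and 11176, 11159 and 11539.9 CPM in the WTATPgs libraries and fell by 0.34 ± 0.03 (adjusted p = 5.23e-05, edgeR). Prf1 (perforin), which lets granzymes into target cells, was at 1251, 1263 and 1244 CPM in the WT libraries and 963, 976 and 1113 CPM in the WTATPgs libraries and fell by 0.30 ± 0.05. Nkg7 fell by 0.49 ± 0.06, Ctsw fell by 0.56 ± 0.04 and the granzyme B inhibitor gene Serpinb9 fell by 0.26 ± 0.03. Gzma (granzyme A) was at 2301, 2284 and 2223 CPM in the WT libraries and 2878, 2868 and 3349 CPM in the WTATPgs libraries and rose by 0.42 ± 0.06.

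On chromosome 14, the granzyme genes next to Gzmb rose while Gzmb fell; Gzma lies on chromosome 13. Gzmd was at 426, 433 and 410.1 CPM in the WT libraries and 966, 969 and 1352 CPM in the WTATPgs libraries and rose by 1.37 ± 0.15 (adjusted p = 0.00141, edgeR), and Gzme at 194, 192 and 187 CPM in the WT libraries and 510.4, 504 and 672 CPM in the WTATPgs libraries, by 1.56 ± 0.12. Gzmf was at 32.3, 30.5 and 30.7 CPM in the WT libraries and 99.8, 99.5 and 67.9 CPM in the WTATPgs libraries and rose by 1.51 ± 0.16, Gzmg at 317, 322 and 318 CPM in the WT libraries and 853, 822 and 485 CPM in the WTATPgs libraries, by 1.17 ± 0.24 (passed in 2 of 6 fits), and Gzmc by 0.46 ± 0.08. WTATPgs-3 was the highest library for Gzmc, Gzmd and Gzme and the lowest treated one for Gzmf and Gzmg. These genes are near-identical copies, and how reads shared between them were counted is not given, so the split among them is uncertain. Of these, 3 hold the full TGACGTCA in nearly the same surroundings, shown in capitals.
Gzmc, chr14:56234658-56234757, minus strand: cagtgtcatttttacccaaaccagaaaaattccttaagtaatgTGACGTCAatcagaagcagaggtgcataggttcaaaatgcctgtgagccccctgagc
Gzmf, chr14:56211420-56211519, minus strand: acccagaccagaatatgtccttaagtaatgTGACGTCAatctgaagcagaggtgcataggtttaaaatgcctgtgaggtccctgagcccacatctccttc
Gzmg, chr14:56159587-56159686, minus strand: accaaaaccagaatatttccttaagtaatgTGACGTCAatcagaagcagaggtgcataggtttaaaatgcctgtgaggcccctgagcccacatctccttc

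Lists of transcription factors and receptors had members called in both directions. So did all tested genes, 17.7% higher and 19.4% lower (26.9% each without WTATPgs-3). With 6 libraries the shares of the natural killer and SLAM list were near these. Of 24 tested activation factors, 8 (33.3%) were higher and 5 (20.8%) lower (14 and 6 without WTATPgs-3). Of 25 lineage factors 7 (28.0%) were higher and 6 (24.0%) lower (11 and 8). Of 31 tested natural killer and SLAM family receptor genes, 6 (19.4%) were higher and 7 (22.6%) lower (14 and 10). Of 22 costimulatory and inhibitory receptor and ligand genes 7 (31.8%) were higher and 5 (22.7%) lower (11 and 5). Among those higher were Mxd1, a MYC antagonist (1.30 ± 0.14), the lineage factor genes Satb1 (0.45 ± 0.03) and Runx3 (0.40 ± 0.05), Klrc3, a killer cell lectin receptor gene (1.06 ± 0.22), and Cd80, a ligand of CD28 and CTLA-4 (0.86 ± 0.13). Tbx21 (T-bet), the driver of Ifng, was at 133, 132 and 136 CPM in the WT libraries and 51.5, 47.5 and 77.3 CPM in the WTATPgs libraries and fell by 1.19 ± 0.19 (adjusted p = 0.00696, edgeR). Irf4, which follows T cell receptor strength, was at 771, 793 and 791 CPM in the WT libraries and 476, 480.2 and 455 CPM in the WTATPgs libraries and fell by 0.74 ± 0.03, and Nfatc1 fell by 0.51 ± 0.05. Myc was at 409, 414 and 411 CPM in the WT libraries and 245, 238 and 307 CPM in the WTATPgs libraries and fell by 0.64 ± 0.10. Rora was at 98.3, 96.4 and 99.9 CPM in the WT libraries and 215, 211 and 184 CPM in the WTATPgs libraries and rose by 1.05 ± 0.06. Crtam, an adhesion receptor gene of activated cytotoxic cells, was at 1078, 1084 and 1097 CPM in the WT libraries and 309, 302 and 393 CPM in the WTATPgs libraries and fell by 1.70 ± 0.10. Cd160 fell by 0.88 ± 0.05, Lag3 fell by 0.90 ± 0.04 and Slamf7 fell by 0.82 ± 0.09. The inhibitory receptor genes did not move as 1 group, since Ctla4 rose, Lag3 fell, and Pdcd1 (PD-1; 0.09 ± 0.06), Havcr2 (TIM-3; 0.02 ± 0.05) and Tigit (−0.01 ± 0.05) did not pass with 6 libraries.

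A short stretch before the Il2 start shows GGAAAA, the core bound by NFAT factors, in capitals.
Il2, chr3:37126022-37126121, minus strand: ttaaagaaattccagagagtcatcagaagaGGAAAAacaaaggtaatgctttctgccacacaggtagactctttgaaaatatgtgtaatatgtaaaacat
GGAAAA on either strand stood in 24.1% of promoters of tested genes, in 30.6% of those of genes that fell at least 2-fold and in 21.4% of those of genes that rose as much.

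Of 20 tested genes of the interleukin 2 and STAT5 axis, 10 were lower and 5 higher, beside 19.4% and 17.7% of all tested genes. The counts were 11 and 7 without WTATPgs-3, beside 26.9% of all tested genes in each direction. In both fits the share higher was closer to that of all genes than the share lower was. Beside Stat5a, Stat5b fell by 0.30 ± 0.04, Cish, a STAT5 target, fell by 0.19 ± 0.03 and Pim2 fell by 0.44 ± 0.04. The receptor chains differed. Il2ra (CD25) was at 2068, 2084 and 2124 CPM in the WT libraries and 2121, 2048 and 2424 CPM in the WTATPgs libraries and did not pass (adjusted p = 0.389, edgeR), Il2rb rose by 0.34 ± 0.03 and Il2rg fell by 0.31 ± 0.05. The suppressors of cytokine signalling Socs1, Socs2 and Socs3 rose, by 0.66 ± 0.08, 0.67 ± 0.06 and 1.28 ± 0.09. Socs3 was at 41.1, 41.5 and 42.9 CPM in the WT libraries and 109.5, 109 and 85.9 CPM in the WTATPgs libraries. Stat3 was at 421, 422 and 419 CPM in the WT libraries and 823, 819.9 and 919 CPM in the WTATPgs libraries and rose by 1.02 ± 0.05, in contrast to Stat5a, its neighbour on chromosome 11; exons of these genes overlap, so reads there could count for either. Jak2 was at 489, 494 and 482 CPM in the WT libraries and 256, 253 and 226 CPM in the WTATPgs libraries and fell by 0.99 ± 0.05.

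Receptors for cytokines and chemokines rose more often than they fell. Of 30 tested cytokine receptor genes, 13 (43.3%) were higher and 5 (16.7%) lower, beside 17.7% and 19.4% of all tested genes. Without WTATPgs-3 the counts were 20 (66.7%) and 6 (20.0%), beside 26.9% in each direction. All 4 interferon receptor chains were higher: with Ifngr1, Ifngr2 rose by 0.95 ± 0.07, Ifnar1 by 0.35 ± 0.04 and Ifnar2 by 0.34 ± 0.08. Il4ra rose by 0.50 ± 0.04 and Tgfbr2 by 0.48 ± 0.05, while Il12rb1 was at 651, 654 and 657 CPM in the WT libraries and 436, 435 and 480.2 CPM in the WTATPgs libraries and fell by 0.54 ± 0.04. Il12rb2, the other chain of the interleukin 12 receptor, rose by 0.59 ± 0.05. Csf2rb and Il1rl1 (ST2), at 209, 218 and 218 CPM in the WT libraries and 390.2, 397 and 60.99 CPM in the WTATPgs libraries and 128, 134 and 132 CPM in the WT libraries and 195, 189 and 50.8 CPM in the WTATPgs libraries, were below WT in WTATPgs-3 and above it in the other 2. They did not pass with 6 libraries (adjusted p = 0.73 and 0.871, edgeR).

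Of 20 tested chemokine and related migration receptor genes, 13 were higher and 1 lower, beside 17.7% and 19.4% of all tested genes. The counts were 15 and 1 without WTATPgs-3, beside 26.9% of all tested genes in each direction. The list's median log2 fold change was 0.73 with 6 libraries. Of the 13, 5 passed in every fit with 1 library left out. Gpr183 (EBI2), an oxysterol receptor, was at 38.7, 40.1 and 39.1 CPM in the WT libraries and 82.9, 85.2 and 124 CPM in the WTATPgs libraries and rose by 1.31 ± 0.17 (adjusted p = 0.00217, edgeR). Cxcr4 was at 18.4, 16.5 and 18.4 CPM in the WT libraries and 37.2, 37.8 and 47.8 CPM in the WTATPgs libraries and rose by 1.20 ± 0.11, and Ccr4 rose by 1.01 ± 0.12. S1pr1, needed to leave lymph nodes, was at 3.37, 4.01 and 2.83 CPM in the WT libraries and 9.31, 8.47 and 6.55 CPM in the WTATPgs libraries and rose by 1.25 ± 0.18. Ccr7, the lymph node homing receptor, was at 10.8, 9.62 and 8.85 CPM in the WT libraries and 21.8, 19.5 and 45.98 CPM in the WTATPgs libraries; every treated library was above WT, WTATPgs-3 the most, and it rose by 1.58 ± 0.39 (passed in 3 of 6 fits). The 1 lower was Cxcr3, which fell by 0.66 ± 0.13.

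Genes of T cell quiescence and homing, some of them also receptors of the last list, rose more often than they fell. Of 27 tested, 18 (66.7%) were higher and 5 (18.5%) lower, with a median of 0.45. Of all tested genes 17.7% were higher and 19.4% lower, so the share lower was near that of all genes. Without WTATPgs-3 the counts were 18 (66.7%) and 6 (22.2%), beside 26.9% in each direction. Klf2, a quiescence factor that drives S1pr1, was at 4.48, 3.13 and 3.72 CPM in the WT libraries and 23.3, 21.9 and 12.6 CPM in the WTATPgs libraries and rose by 2.35 ± 0.27 (adjusted p = 8.65e-04, edgeR). Foxo1, which sustains Il7r and Klf2, was at 75.03, 73.4 and 76.9 CPM in the WT libraries and 133, 136 and 137 CPM in the WTATPgs libraries and rose by 0.85 ± 0.04, and Tob1, an antiproliferative gene, by 0.82 ± 0.07. The activation markers Cd69 and Cd44 fell (log2 fold changes −0.49 ± 0.04 and −0.51 ± 0.04). Not all members went this way, as Foxp1 fell by 0.53 ± 0.06, Slfn2 fell by 0.64 ± 0.04, and Tcf7 (−0.17 ± 0.18) and Lef1 (−0.03 ± 0.09) did not pass with 6 libraries.

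Genes of protein making and folding were lower by small amounts. The shares lower were 83.0%, 68.2% and 48.1% in the ribosomal protein, heat shock and endoplasmic reticulum stress lists, beside 19.4% of all tested genes. The shares higher were 0%, 13.6% and 14.8%, beside 17.7%. Without WTATPgs-3 the shares lower were 91.5%, 77.3% and 77.8%, beside 26.9% of all tested genes in each direction. Of 47 tested ribosomal protein genes, 39 were lower and 0 higher (43 and 0 without WTATPgs-3), with a median of −0.16; 15 of the 39 passed in every fit with a library left out, and 25 were lower when scaled to library size only. Of 22 heat shock and chaperonin genes, 15 were lower and 3 higher (17 and 3 without WTATPgs-3). Hsp90ab1 was at 3418, 3393 and 3370.3 CPM in the WT libraries and 2738, 2724 and 2807 CPM in the WTATPgs libraries and fell by 0.30 ± 0.03 (adjusted p = 9.24e-05, edgeR), and the mitochondrial chaperone gene Hspd1 fell by 0.59 ± 0.10. The stress-inducible Hspa1a and Hspa1b went up instead, by 2.42 ± 0.23 and 1.79 ± 0.19. Of 27 genes of the endoplasmic reticulum stress response, 13 were lower and 4 higher (21 and 4 without WTATPgs-3). The chaperone gene Hspa5 (BiP) fell by 0.34 ± 0.05 and Hyou1 fell by 0.51 ± 0.06. The sensor genes Ern1 (IRE1 alpha) and Eif2ak3 (PERK) rose by 0.92 ± 0.04 and 0.90 ± 0.06.

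Of 29 tested genes of cholesterol synthesis and uptake, 16 (55.2%) were higher and 1 (3.4%) lower, beside 17.7% and 19.4% of all tested genes. Without WTATPgs-3 the counts were 23 (79.3%) and 1 (3.4%), beside 26.9% in each direction. Hmgcs1 was at 72.7, 76.95 and 76.9 CPM in the WT libraries and 113, 115 and 98.1 CPM in the WTATPgs libraries and rose by 0.52 ± 0.06 (adjusted p = 3.90e-04, edgeR). In fatty acid metabolism, the synthesis genes Acaca and Fasn fell (log2 fold changes −0.66 ± 0.04 and −0.50 ± 0.04). Cpt1a, which admits fatty acids to mitochondria, rose by 0.77 ± 0.04. Of 12 tested mitochondrially encoded genes, 7 (58.3%) were higher and 0 lower, and 8 (66.7%) and 0 without WTATPgs-3. Of 42 cell cycle genes, 12 (28.6%) were higher and 5 (11.9%) lower, beside 17.7% and 19.4% of all tested genes. Without WTATPgs-3 they were 14 (33.3%) and 12 (28.6%), near the 26.9% of all genes for the falls. Ccnd2 was at 1503, 1514 and 1523 CPM in the WT libraries and 920.3, 899.5 and 931 CPM in the WTATPgs libraries, and the inhibitor gene Cdkn1b (p27) rose by 0.81 ± 0.07, as did Mki67, a marker of cycling cells, by 0.41 ± 0.03. Of 26 targets of p53, 14 (53.8%) were higher and 5 (19.2%) lower, the share lower being near the 19.4% of all genes. Without WTATPgs-3 the counts were 16 (61.5%) and 5 (19.2%). Among the p53 targets called were Perp (0.92 ± 0.05), Ddit4 (1.07 ± 0.13) and Plk2 (−0.72 ± 0.05).

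**Figure D5:**
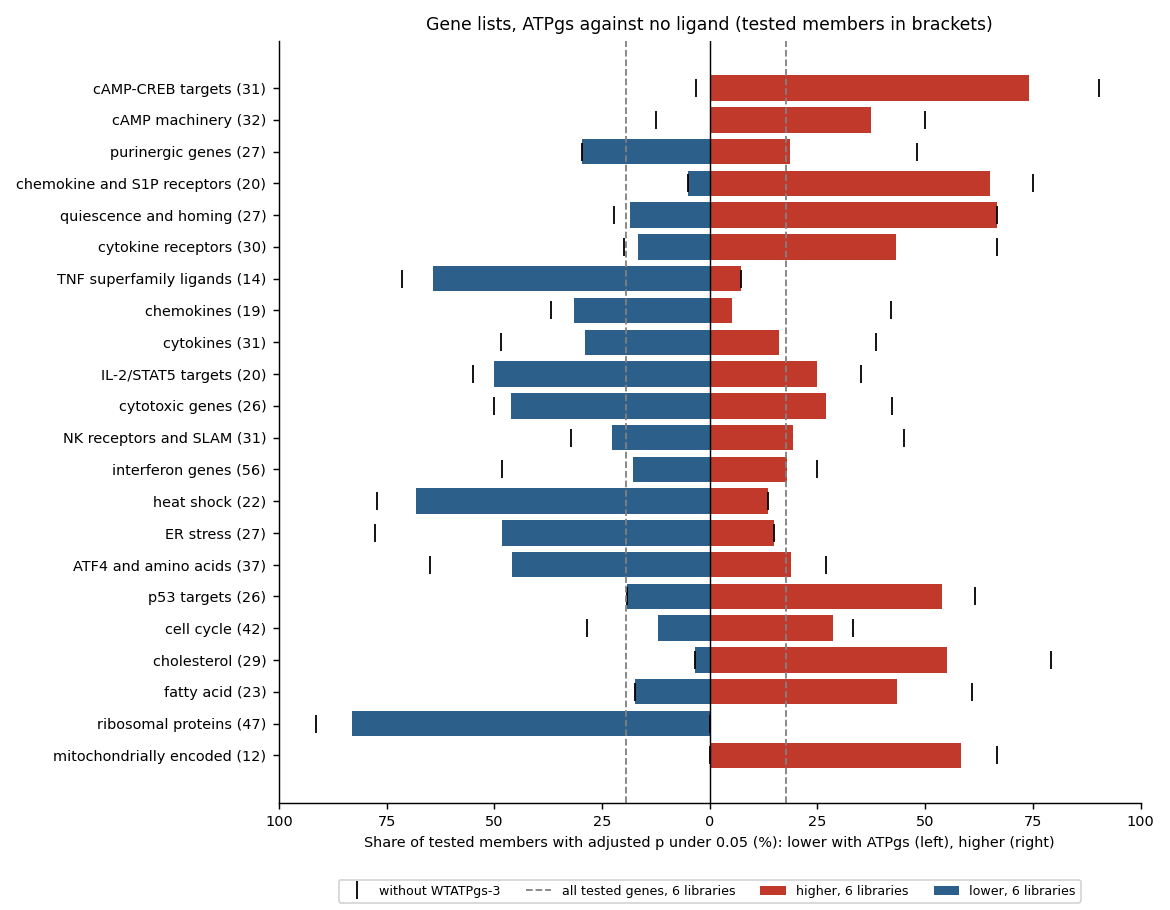
Share of tested members of 22 gene lists with adjusted p under 0.05 (horizontal axis, percent), lower with ATPgs to the left in blue and higher to the right in red; black ticks give the shares without WTATPgs-3 and dashed lines those of all tested genes, 19.4% lower and 17.7% higher. The ribosomal protein, heat shock and TNF ligand lists reach farthest to the left and the cAMP and CREB targets, quiescence and chemokine receptor lists farthest to the right.

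Of 56 tested interferon-induced genes, 10 were higher and 10 lower with 6 libraries, near the shares of all genes. The counts were 14 and 27 (48.2%) without WTATPgs-3, beside 26.9% of all tested genes in each direction. The list's sum was 4015 to 4047 CPM in WT, 3812 and 3845 CPM in WTATPgs-1 and WTATPgs-2, and 5269 CPM in WTATPgs-3. Its median log2 fold change was −0.15 without WTATPgs-3 and 0.27 in WTATPgs-3 alone. The cause of this split was not tested. Ifit1 (0.83 ± 0.07), Irf1 (0.48 ± 0.06) and Gbp7 (0.55 ± 0.09) rose, and Mx1 (−0.73 ± 0.10), Isg20 (−0.52 ± 0.07) and Ifih1 (−0.47 ± 0.09) fell.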

How the data were processed

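The authors deposited whole-number counts per Ensembl gene, and only these were used. HISAT2 2.1.0 and the build GRCm38 come from the submitters' processing notes, which name no counting tool or strand setting. GENCODE M21 tables gave symbols for 99.7% of 52550 genes. Differential expression was computed in R 4.3.3 with edgeR 4.0.16: genes passing filterByExpr, TMM scaling, robust quasi-likelihood F tests (2-sided), and Benjamini-Hochberg adjustment across every tested gene, both for 6 libraries and without WTATPgs-3. SEs were derived from each log2 fold change and its F value. The comparison and the 45 gene lists were chosen with earlier results of these data known. Genes were named from the 15 largest rises and falls and the 10 largest gains and losses in CPM with a mean of at least 5 CPM, a call with and without WTATPgs-3 and no overlap between groups, the 8 smallest p per list, all purinergic and cAMP genes, and the 10 of largest excess in WTATPgs-1 and WTATPgs-2; other names were chosen after their values were seen. Some genes that these rules pick are not reported here. The fit was repeated with DESeq2 1.42.0, other scalings and filters, a block for replicate number, a minimum fold, a transcript length offset and each library left out. No 2 libraries of a group agreed within sampling noise. The procedure was tested on simulated data. Python 3.11.15 and matplotlib 3.10.9 drew the figures.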

Additional observations from a re-analysis of the deposited data

How the results depend on the processing

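With 6 libraries 5612 genes were called, 2678 higher and 2934 lower. Requiring a log2 fold change above 0.5 left 659, 425 higher and 234 lower, by its construction. Leaving out 1 library gave 3885 to 8381 calls, 1778 to 4186 higher and 2080 to 4195 lower, the highest without WTATPgs-3; the cause was not tested. WTATPgs-3 alone against WT, an alternative added after the data were seen that assumes the lone library to vary like the WT libraries, gave 7103 calls. The replicate block gave 4792 calls, 2304 higher and 2488 lower. Replicate numbers did not pair the libraries: the correlations of same-numbered deviations were −0.02, 0.0007 and −0.02. DESeq2 called 4873. The other counts of calls stayed within 1.5 times under the other scalings, the other filters and the length offset.

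Some of the genes named took the opposite direction in WTATPgs-3 alone. Those with no call in either that fit or the fit of 6 libraries are left out here. None of those listed was called with 6 libraries, and the cause of their direction in WTATPgs-3 alone was not tested. Among myeloid, B cell and type 2 genes the log2 fold changes there were −0.80 for Il1b, −0.56 for S100a9, −1.22 for Chil3, −1.42 for Ltf, −1.47 for Hgf, −2.74 for Ccl24, −1.51 for Ccl6, −1.09 for Ccl9, −1.53 for Prss34, −5.70 for Jchain, −2.07 for Ighm, −2.38 for Il4, −1.34 for Il1rl1 and −1.79 for Csf2rb. Ms4a1, with no count in that library, had a fitted −7.93 that depends on the prior count. Among purinergic and cAMP genes they were −1.27 for P2rx1, −0.28 for P2rx4, −0.77 for P2rx7, −1.28 for P2ry1 and −0.10 for Adcy7. The rest were −0.087 for Havcr2, 0.10 for Id2, 0.24 for Tcf7 and 0.12 for Tigit. With 1 library left out, the gene Il5 ran from −0.41 to 0.43, the gene Cd40lg from −0.37 to 0.19 and the gene Trdc from −0.19 to 1.42, each extreme being the fit without WTATPgs-2 or without WTATPgs-3. Counting error weighs most on genes near 1 CPM, since libraries held 22112929 to 24331577 counts.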
